A study of Homo sapiens with 4 samples.

Results

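The miRNAs with late registry numbers, those named hsa-miR-1178 and above, were described in HepG2 cells, an established human hepatoma line, treated with the plant alkaloid berberine. Members were picked by name, and this choice was made with earlier results of these data known. A member had a name starting with hsa-miR-, the number of hsa-miR-1178 or a higher one and no asterisk, the older mark of a passenger strand. This gave 123 of the 851 human miRNAs on the array. They were set against 549 miRNAs without an asterisk and with a lower number. The 8 let-7 names and the 171 names with an asterisk belonged to neither group.

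HepG2 cells were given 40 µM berberine chloride, made up in dimethyl sulfoxide (DMSO), or 0.08% DMSO as the control, and their RNA was harvested at 2 h and at 4 h. Each of the 4 conditions (control 2 h, berberine 2 h, control 4 h and berberine 4 h) was measured on 1 single-colour Agilent human miRNA array, and all 4 arrays lay on 1 slide read in 1 scan. No condition was repeated, the variation between cultures is therefore not known, no test was made, and treatment cannot be told apart from the array that carried it. HepG2 is a tumour line and is not a model of normal hepatocytes. Its labelled origin was checked on 3 miRNAs of the liver lineage, miR-122, miR-192 and miR-194, which were detected on all 4 arrays with a summed signal of 1341 to 2536. Most of this sum came from miR-192 (821 to 1565) and miR-194 (498 to 931), while miR-122 read only 22.4 to 39.9. Of 6 miRNAs that mark blood cells, muscle, neurons or endothelium, miR-142-3p was detected on 1 array, at a signal of 6.13, and the other 5 were detected on none.

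A miRNA is a short RNA that Dicer cuts from a hairpin and that guides Argonaute to messenger RNAs, mostly by pairing of its seed, bases 2 to 8. Registry numbers follow the order of registration. The names studied here were registered late, largely from deep sequencing and high-throughput discovery, while lower numbers hold most of the conserved and abundant families. Some late names mark mirtrons, whose hairpins are short introns freed by splicing without a Drosha cut. Others overlap structured RNAs such as tRNA, rRNA and the spliceosomal snRNAs, and several of these were later withdrawn or questioned as miRNAs.

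The sequences of members detected on all 4 arrays are shown first, because each array value below is a reading of probes made against them. Mature sequences came from RefSeq (GRCh38.p14), where 67 of the 123 names matched 1 mature sequence, among them 12 of the 27 members detected on any array. A further 32 names matched a hairpin with several arms and could not be assigned to 1 of them, and 24 had no entry, among them hsa-miR-1274a, hsa-miR-1274b, hsa-miR-1280, hsa-miR-1308 and hsa-miR-1826. Capitals mark the seed. The first pair, from chr2:176601024-176601042 on the minus strand and chr1:18897078-18897096 on the minus strand within the bounds of ALDH4A1, is shown because it shares the longest run of bases, 12, starting at base 3 of hsa-miR-1246 and at base 1 of hsa-miR-1290.
hsa-miR-1246: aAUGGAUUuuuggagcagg
hsa-miR-1290: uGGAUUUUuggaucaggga

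The next set is shown because it holds the brightest member with a sequence, hsa-miR-1260, and other members on all 4 arrays whose readings are given below, and because hsa-miR-1202 shared runs of 9 bases with hsa-miR-1225-5p and with hsa-miR-1275. The first, hsa-miR-1260, is listed by RefSeq as hsa-miR-1260a at chr14:77266231-77266248 on the plus strand, within the bounds of NGB. The others are at chr6:155946809-155946829 (plus), chr6:34000018-34000034 (minus), chr16:2090263-2090284 (minus, within the bounds of PKD1), chr15:22225308-22225325 (minus, listed as hsa-miR-1268a) and chr4:182169343-182169364 (plus, within the bounds of TENM3).
hsa-miR-1260: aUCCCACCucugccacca
hsa-miR-1202: gUGCCAGCugcagugggggag
hsa-miR-1275: gUGGGGGAgaggcuguc
hsa-miR-1225-5p: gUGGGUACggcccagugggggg
hsa-miR-1268: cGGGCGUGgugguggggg
hsa-miR-1305: uUUUCAACucuaaugggagaga

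The last set holds 3 members close to the detection limit. Their total signals changed with the number of probes detected, as given below. They are at chr16:2090195-2090216 (minus, within the bounds of PKD1), chr22:41092545-41092561 (plus) and chr20:32237830-32237847 (plus, within the bounds of POFUT1). The last 2 share a run of 10 bases.
hsa-miR-1225-3p: uGAGCCCCugugccgcccccag
hsa-miR-1281: uCGCCUCCuccucuccc
hsa-miR-1825: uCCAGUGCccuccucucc

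No 2 of the 67 matched members shared a seed. A comparison of base composition over the members was void, since only 67 of 123 had 1 sequence to measure.

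Fewer of the late numbers than of the lower numbers were detected. A miRNA counted as detected where at least 1 of its probes gave a background-subtracted total signal above 3 times its own error. Of the 123 members, 25 (20.3%) were detected in control cells at 2 h, 23 (18.7%) with berberine at 2 h, 24 (19.5%) in control cells at 4 h and 25 (20.3%) with berberine at 4 h. Of the 549 lower numbers, 166 (30.2%), 146 (26.6%), 158 (28.8%) and 172 (31.3%) were detected on the same arrays.

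The share did not go down steadily with the number. Names with numbers below 500 were detected at 42.3% to 47.5% on the 4 arrays. Names from 500 up to the first member were detected at 9.81% to 14.0%, so the members lay between these ranges on every array. With lower numbers of 500 and above as the comparison, the order was therefore turned, and more of the late numbers were detected. Over all 4 arrays together, 22 members were detected on every array, 5 on 1 to 3 arrays and 96 (78.0%) on none. Of the lower numbers, 146 were detected on every array, 30 on 1 to 3 and 373 (67.9%) on none.

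**Figure D1:**
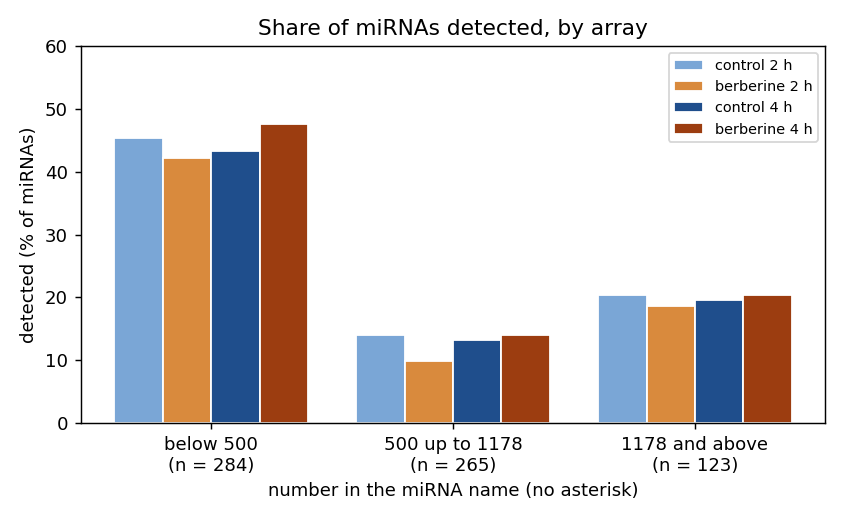
Bars give the percent of miRNAs without an asterisk that were detected on each of the 4 arrays (vertical axis), grouped by the number in the name (horizontal axis, with the number of miRNAs). The members stand at 18.7% to 20.3%, below names with numbers under 500 (42.3% to 47.5%) and above names from 500 up to the first member (9.81% to 14.0%).

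Few members were detected on only 1 array of a time. At 2 h, 3 of 25 members on the control array were missing with berberine, as were 20 of 166 lower numbers. In all, 3 members were detected on the control array alone and 1 on the berberine array alone, against 20 and 0 of the lower numbers. At 4 h, 1 member was detected on the control array alone and 2 on the berberine array alone, against 4 and 18 of the lower numbers. Of the 4 arrays, berberine 2 h was the dimmest and berberine 4 h the brightest, as described below, and the part of this in the counts was not tested.

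The 5 members detected on only some arrays were dim, with no signal above 9.13. The limit of a probe is 3 times its error on that array. For hsa-miR-1307, the second probe read 6.08, 4.71, 4.89 and 9.09 on control 2 h, berberine 2 h, control 4 h and berberine 4 h, with limits of 3.83, 4.93, 4.71 and 4.53, so it missed detection at berberine 2 h by a small margin and stood well clear of its limit at berberine 4 h. For hsa-miR-1539, the second probe read 4.32, 4.66, 3.58 and 3.88 against limits of 3.61, 4.93, 4.59 and 3.74, so its highest reading was on an array where it was not detected. The total signal of hsa-miR-1539 was 9.13 at control 2 h, where both probes were detected, and 3.88 at berberine 4 h, where 1 was.

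The others had a single probe above its limit where they were detected. The mirtron hsa-miR-1227 was detected at berberine 2 h (2.81) through 1 probe and at control 4 h (3.31) through another, and no probe of it was detected on 2 arrays. The mirtron hsa-miR-1237 was detected at control 2 h alone (4.48). On the array with berberine at 4 h, hsa-miR-1180 alone among the members was detected there and nowhere else, with a signal of 4.40 against a limit of 3.79.

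Detected members were mostly dim, with a few very bright ones. The total signal is the sum over the detected probes of a miRNA, in intensity units that Feature Extraction does not scale between arrays. Readings of different miRNAs come from different probes, so their order describes array signal and not the number of molecules. The median signal of detected members was 34.3, 35.7, 31.5 and 37.2 on control 2 h, berberine 2 h, control 4 h and berberine 4 h, below the medians of detected lower numbers, 82.0, 71.4, 80.2 and 76.5. Against lower numbers of 500 and above alone, whose medians were 12.2, 22.1, 8.85 and 15.2, the members stood higher.

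A few names carried nearly all of the members' signal. Members made up 21.1%, 24.2%, 21.4% and 19.7% of the summed signal of human miRNAs on the 4 arrays. Within this, hsa-miR-1274b, hsa-miR-1260 and hsa-miR-1274a held 91.8%, 93.2%, 91.8% and 90.9%. These 3 were the only members above 1000 on any array, and 69.6% to 72.0% of the detected members were below 100.

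Both hsa-miR-1274b and hsa-miR-1274a overlap tRNA genes. The signal of hsa-miR-1274b was 15159 ± 1117, 14583 ± 1077, 13824 ± 1025 and 15665 ± 1157 (± the Feature Extraction error, 1 array each). It was the second brightest human miRNA on the first 3 arrays and stood at rank 3 at berberine 4 h, and its highest signal was only 1.13 times its lowest. Signals of hsa-miR-1274a were 3455, 3278, 3179 and 3565, and it stood at rank 5 on all 4 arrays.

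The second brightest member was hsa-miR-1260, with signals of 4536, 4332, 4434 and 4717 and rank 4 on all 4 arrays. Its highest signal was 1.09 times its lowest, a span inside the error of any 1 of the readings. The same was seen at a lower level for hsa-miR-1280, another name that overlaps tRNA, with 235, 231, 237 and 252 and a span of 1.09 times.

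A second kind of member varied with the array. The signal of hsa-miR-1246, a name that matches part of the U2 snRNA, was 799, 563, 711 and 875. That of hsa-miR-1290, which shares a run of bases with it as printed above, was 219, 149, 196 and 295. Both were lowest at berberine 2 h and highest at berberine 4 h, the order in which the arrays themselves differed in brightness.

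The remaining 4 of the 10 brightest were mixed. The tRNA-overlapping name hsa-miR-1308 read 347, 312, 352 and 457, and hsa-miR-1202 read 87.1, 79.8, 76.1 and 90.2. The mirtron hsa-miR-1225-5p read 49.6, 38.2, 56.8 and 72.8, and hsa-miR-1207-5p read 53.9, 35.7, 51.7 and 66.3. For all of these the highest reading was at berberine 4 h, and for all but hsa-miR-1202 the lowest was at berberine 2 h. The highest reading was 1.18 times the lowest in hsa-miR-1202, 1.47 times in hsa-miR-1308, 1.91 times in hsa-miR-1225-5p and 1.86 times in hsa-miR-1207-5p, against 1.55 times in hsa-miR-1246.

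The other 12 members on all 4 arrays had mean signals from 6.16 (hsa-miR-1825) up to 49.8 (hsa-miR-1275). Among them, hsa-miR-1915 read 32.9, 24.1, 24.4 and 48.9, with berberine 4 h standing apart from the rest. The signals of hsa-miR-1305 were 39.0, 37.8, 34.4 and 36.4, a span of 1.13 times.

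**Figure D2:**
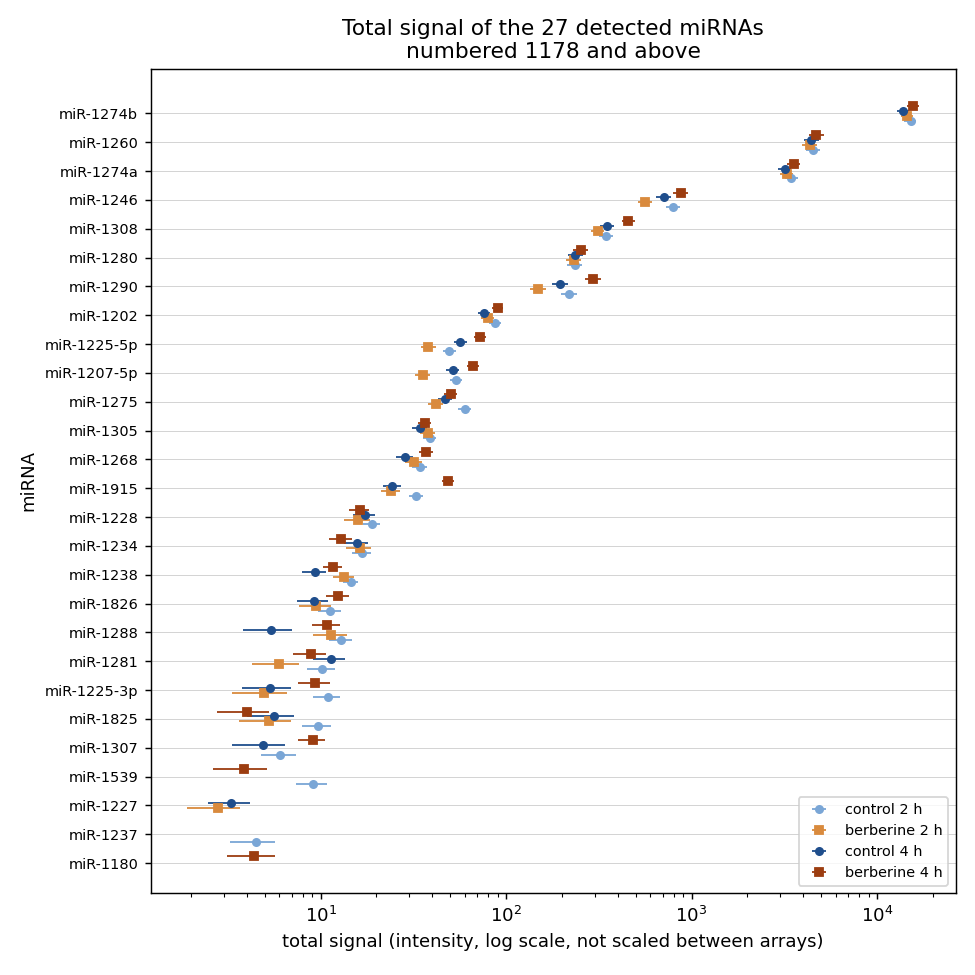
Points give the total signal (horizontal log axis, intensity, not scaled between arrays) of the 27 members detected on any array, with the Feature Extraction error as bars and 1 point for each array on which the member was detected. The 4 points of hsa-miR-1274b, hsa-miR-1260, hsa-miR-1274a and hsa-miR-1280 nearly coincide, whereas those of hsa-miR-1246 and hsa-miR-1290 spread with berberine 2 h lowest and berberine 4 h highest.

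The arrays differed in brightness, and the sign of most member ratios changed with scaling, in 17 of 22 at 2 h and 13 of 23 at 4 h, against 52 of 146 and 25 of 154 lower numbers. Over those 197 human miRNAs that every array detected, the 75th percentile of the signal was 243 at control 2 h, 169 at berberine 2 h, 225 at control 4 h and 297 at berberine 4 h. A scaled ratio was taken as the log2 of berberine over control after each array was divided by its own 75th percentile, and an unscaled ratio without that step. The scaling shifted every log2 ratio by 0.52 at 2 h and by -0.40 at 4 h. Without scaling, the median log2 ratio of the lower numbers was -0.55 at 2 h (146 miRNAs) and 0.54 at 4 h (154 miRNAs), while that of the members was -0.21 (22 members) and 0.30 (23 members).

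The members thus moved less between the arrays than the lower numbers did. Unscaled, hsa-miR-1274b had log2 ratios of -0.06 at 2 h and 0.18 at 4 h, hsa-miR-1260 of -0.07 and 0.09, hsa-miR-1274a of -0.08 and 0.17, and hsa-miR-1280 of -0.02 and 0.09. An unscaled log2 ratio within 0.2 of 0 was found for 11 of 22 members (50.0%) at 2 h, against 6 of 146 lower numbers (4.11%). At 4 h it was found for 7 of 23 members (30.4%), against 7 of 154 lower numbers (4.55%). Between the control arrays, where brightness differed little, the shares were 14 of 23 members (60.9%) and 47.7% of the lower numbers.

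Lower numbers of like signal were set beside the brightest members. The lower number nearest in mean signal to hsa-miR-1274b was hsa-miR-21, an abundant miRNA of tumour cells, with signals of 11833, 8108, 10795 and 16770, unscaled log2 ratios of -0.55 and 0.64. The one nearest to hsa-miR-1260 and to hsa-miR-1274a was hsa-miR-20a of the miR-17 family, with 2476, 1699, 2101 and 3081, unscaled log2 ratios of -0.54 and 0.55. Both were lowest at berberine 2 h and highest at berberine 4 h, and spanned more than the members next to them in signal. The part of signal level in the difference between members and lower numbers was not tested. No spot was saturated on any array.

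A lower number showed the members' pattern too. The brightest human signal on every array was that of hsa-miR-720, named here after its values were seen, a name that overlaps tRNA as hsa-miR-1274b does. It read 40425, 37658, 38321 and 37534, with unscaled log2 ratios of -0.10 and -0.03. Among lower numbers of 500 and above, 19.2% lay within 0.2 of 0 at 2 h, against 0.833% of names below 500, so the pattern was not particular to the members.

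**Figure D3:**
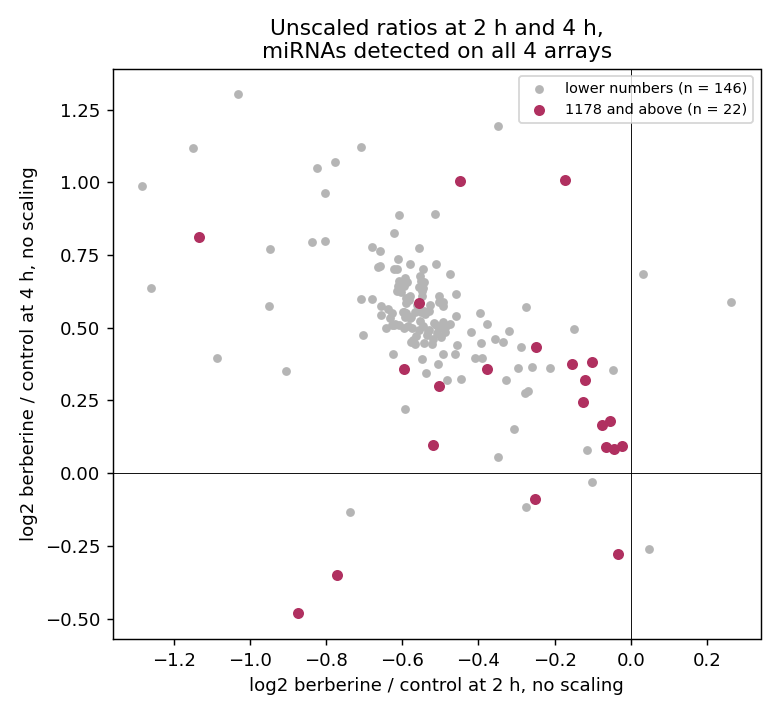
Each point is a miRNA detected on all 4 arrays, with its unscaled log2 ratio of berberine over control at 2 h (horizontal) and at 4 h (vertical), members in colour and lower numbers in grey. Most lower numbers cluster around -0.55 at 2 h and 0.54 at 4 h, and a group of members lies near 0 on the horizontal axis, led by hsa-miR-1280 at -0.02 and 0.09.

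After scaling by the percentile given above, members tended to have ratios above 0 at 2 h and below 0 at 4 h. Under that scaling the lower numbers as a whole tended the opposite way. At 2 h, 17 of 22 members were above 0 with a median log2 ratio of 0.31, while 55 of 146 lower numbers were above 0 with a median of -0.03. At 4 h, 17 of 23 members were below 0 with a median of -0.10, while 125 of 154 lower numbers were above 0 with a median of 0.14. Lower numbers of 500 and above tended the opposite way to the members at 4 h only. In that class 15 of 26 were above 0 at 2 h with a median of 0.12, and 19 of 31 at 4 h with a median of 0.098. All of these directions rest on the scaling. Without it 0 of 22 members were above 0 at 2 h and 19 of 23 were above 0 at 4 h. The direction of the lower numbers also depended on the processing. At 4 h, 93 of 154 were below 0 with scaling to the median and 97 with the brightest probe. With the mean of all probes, 100 were above 0. At 2 h, 95 of 146 were below 0 with scaling to the median. In contrast, 86 were above 0 with the mean of all probes and 97 with limma's normexp.

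The gap between the groups does not depend on any factor common to a whole array. The median of the members minus that of the lower numbers was 0.34 at 2 h and -0.24 at 4 h, and 0.03 between the control arrays. With quantile normalization, which forces the arrays to 1 distribution, the gap at 2 h was only 0.079. The ratios at 2 h and 4 h came from separate pairs of arrays, each with its own control array. All 4 arrays shared 1 slide and 1 scan, so the ratios are not independent of each other. Of the 22 members on all 4 arrays, 14 (63.6%) were above 0 at 2 h and below 0 at 4 h. This order was found in 18 of 146 lower numbers (12.3%). The reverse order was found in 2 members (9.09%) and in 85 lower numbers (58.2%). Among the 26 lower numbers of 500 and above, the first order was found in 8 (30.8%) and the reverse in 10 (38.5%).

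The gap was also taken by signal, in bins chosen after the values were seen. At 2 h it was widest above a mean signal of 300 and at 4 h below 30. Above a mean signal of 300, all 5 members were above 0 at 2 h and below 0 at 4 h, whereas 8 of 35 lower numbers were above 0 at 2 h and 1 of 35 was below 0 at 4 h. Between 30 and 300, 7 of 9 members were above 0 at 2 h and 7 of 9 below 0 at 4 h. Below 30 these were 5 of 8 and 5 of 8. The members' medians minus those of the lower numbers in these bins, from bright to dim, were 0.48, 0.16 and 0.34 at 2 h and -0.36, -0.16 and -0.48 at 4 h.

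No member passed the threshold of a 2-fold change in scaled signal at either time. At 2 h, 0 of 22 members passed it, where 2 of all 197 human miRNAs with a ratio did (1.02%). At 4 h, 0 of 23 members passed it, where 2 of 218 did (0.917%). Between the 2 control arrays, 1 of 23 members passed, against 2.28% of all 219. This was hsa-miR-1288, with signals of 12.9, 11.5, 5.40 and 10.9 and a log2 ratio of -1.15 (SE 0.47), so the single difference past 2-fold arose without berberine and in a dim member. Both probes of hsa-miR-1288 were summed on 3 arrays, and 1 was at control 4 h.

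Some members differed by more than the measurement error of the array. The standard error (SE) of a log2 ratio was taken from the Feature Extraction errors of the 2 signals. It holds no spread between cultures. A ratio was called beyond error where its 95% range on a normal scale left out 0. At 2 h, 8 of 22 members were higher with berberine beyond error and 0 were lower. Over all 197 miRNAs, 14 (7.11%) were higher and 4 (2.03%) lower. At 4 h, 1 of 23 members was higher and 1 lower, where 8.72% and 2.75% of all 218 were.

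The 8 members were close to each other in ratio. The largest was hsa-miR-1280 at 0.50 (SE 0.19), followed by hsa-miR-1305 at 0.48 (SE 0.18), hsa-miR-1274b at 0.47 (SE 0.15), hsa-miR-1260 at 0.46 (SE 0.19) and hsa-miR-1274a at 0.45 (SE 0.17). The others were hsa-miR-1268 at 0.42 (SE 0.20), hsa-miR-1202 at 0.40 (SE 0.15) and hsa-miR-1308 at 0.37 (SE 0.17). All 8 had unscaled log2 ratios between -0.15 and -0.02, that is, nearly the same signal on both arrays. Their scaled ratios therefore stood near the 0.52 that the scaling added, and none of the 8 was beyond error unscaled.

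Without scaling these counts were turned. At 2 h, 0 of 22 members were then higher beyond error and 7 were lower, namely hsa-miR-1207-5p, hsa-miR-1225-3p, hsa-miR-1225-5p, hsa-miR-1246, hsa-miR-1275, hsa-miR-1290 and hsa-miR-1915, where 0.508% of all 197 were higher and 73.1% lower. At 4 h, 6 of 23 members were higher and 0 lower, so hsa-miR-1234 was no longer beyond error, where 68.8% of all 218 were higher and 0.459% lower.

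At 4 h the member higher beyond error was hsa-miR-1915, at 0.61 (SE 0.20), from 24.4 in control cells to 48.9 with berberine. Its signal with berberine was above those on the other 3 arrays, and its ratio without scaling was 1.00. The one lower was hsa-miR-1234, at -0.68 (SE 0.30), from 15.7 to 13.0, and its ratio of 0.49 (SE 0.28) at 2 h was within error. The largest ratio at 4 h by a small margin was that of hsa-miR-1288, 0.61 (SE 0.49), within its error. Its total summed fewer probes at control 4 h than at berberine 4 h. The probe detected on both of these arrays read 5.40 and 5.22, with a ratio of -0.45 (SE 0.55), so the sign turned. The lowest ratios were those of hsa-miR-1225-3p at 2 h, -0.61 (SE 0.53), and of hsa-miR-1825 at 4 h, -0.88 (SE 0.61), and both lay within their error.

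**Figure D4:**
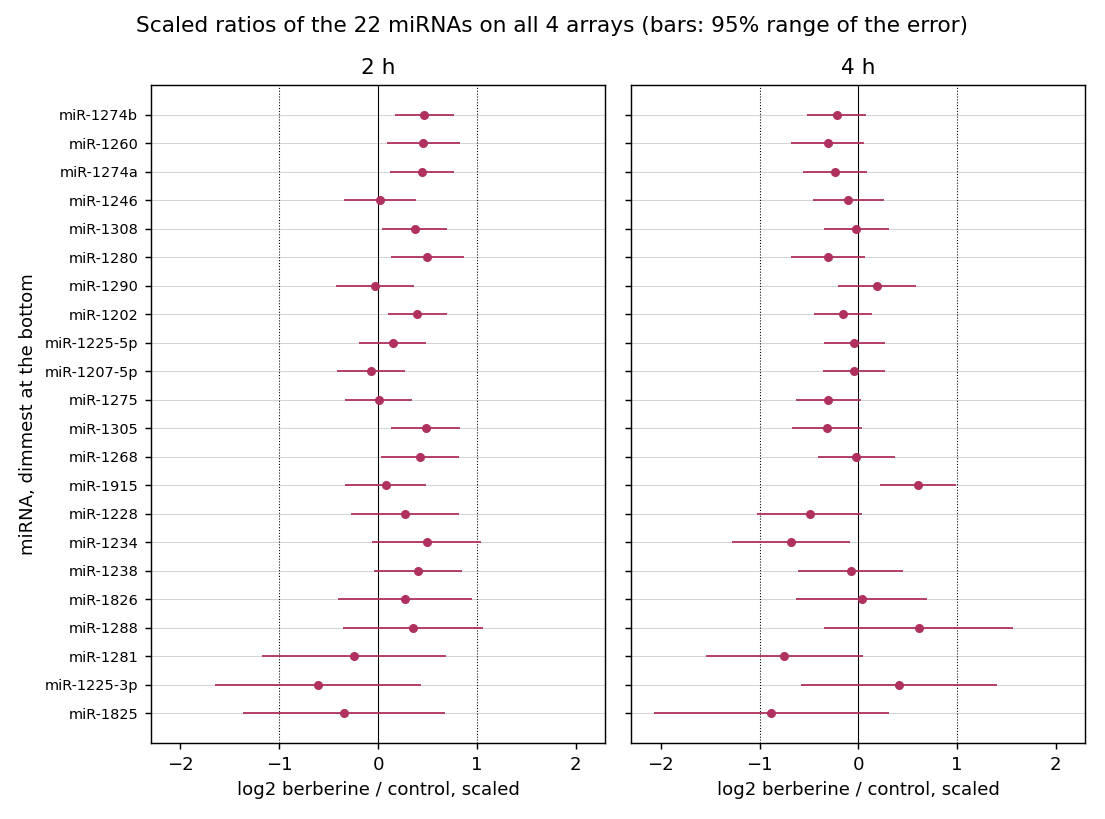
Points give the scaled log2 ratio of berberine over control at 2 h (left) and at 4 h (right) for the 22 members on all 4 arrays, brightest at the top, with bars of the 95% range of the measurement error and dotted lines at a 2-fold change. No point is past a dotted line, 8 bars at 2 h lie wholly above 0, and at 4 h hsa-miR-1915 lies above and hsa-miR-1234 below 0.

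Groups of members by origin were described from lists that were written with earlier results of these data known. Of 15 names that overlap structured RNAs, 10 were on the array, and 6 of these were detected, all on 4 arrays: hsa-miR-1274a, hsa-miR-1274b, hsa-miR-1280, hsa-miR-1308, hsa-miR-1246 and hsa-miR-1826. The median of their mean signals was 552, against 70.6 over the human miRNAs on all 4 arrays. Their scaled log2 ratios had a median of 0.41 at 2 h, with 6 above 0, and of -0.16 at 4 h, with 5 below 0. Without scaling these medians were -0.12 and 0.24, against -0.55 and 0.51 over the 197 human miRNAs.

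The rRNA-overlapping name hsa-miR-1826 was the dimmest of the 6, with signals of 11.3, 9.50, 9.25 and 12.5. All of its signal came from 1 probe, and its other probe read below 0 on every array. Its log2 ratios, 0.28 at 2 h (SE 0.35) and 0.03 at 4 h (SE 0.34), were within error.

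Mirtrons were dimmer and reached fewer arrays than the structured RNA names. Of 11 names from 9 mirtron hairpins, 6 were detected on any array and 4 on all, namely hsa-miR-1225-5p, hsa-miR-1225-3p, hsa-miR-1228 and hsa-miR-1238. The median of their mean signals was 14.7, and their median scaled log2 ratios were 0.21 at 2 h and -0.06 at 4 h. The signals of hsa-miR-1228 were 19.0, 15.9, 17.3 and 16.3, with log2 ratios of 0.27 at 2 h (SE 0.28) and -0.49 at 4 h (SE 0.27), and those of hsa-miR-1238 were 14.6, 13.4, 9.35 and 11.7, with ratios of 0.41 (SE 0.23) and of -0.08 (SE 0.27). Neither was beyond error at either time. At control 4 h 1 of the 4 probes of hsa-miR-1238 was not detected, and the 3 probes detected on both arrays of 4 h gave ratios from -0.57 to -0.40, all below that of the total.

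The remaining 102 members belonged to neither list. Of these, 15 were detected on any array and 12 on all, with median scaled log2 ratios of 0.22 at 2 h, with 8 above 0 and 4 below, and of -0.23 at 4 h, with 3 above 0 and 9 below. They had the signs of the other 2 groups. Over all 197 human miRNAs the medians were -0.02 and 0.11.

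Changes were next compared over the probes of a member. Most members were read by 2 probes, each printed on several spots, and probes of 1 miRNA share the array and its RNA, so they are not replicates of the treatment. At 2 h, 17 of 22 members had at least 2 probes detected on both arrays, and in 16 of these (94.1%) all probes had the sign of the total. At 4 h this held for 14 of 17 (82.4%). For the lower numbers it held for 89 of 116 (76.7%) at 2 h and 103 of 119 (86.6%) at 4 h. Between the control arrays it held for 11 of 17 members. Scaling shifts all probes by 1 amount, so equal signs come more readily to a group whose ratios it moves away from 0. The shares therefore cannot rank members against lower numbers in probe agreement. Unscaled, probes of hsa-miR-1234, hsa-miR-1238, hsa-miR-1288 and hsa-miR-1305 differed in sign at 2 h.

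The probes mostly gave close values. The gap between the highest and the lowest probe ratio of a member had a median of 0.096 and a highest value of 0.57 at 2 h, and of 0.10 and 0.30 at 4 h, on the log2 scale. After scaling, the members whose probes had different signs were those with ratios near 0. They were hsa-miR-1275 at 2 h and hsa-miR-1225-5p, hsa-miR-1268 and hsa-miR-1308 at 4 h. In no member were 2 probes beyond error with opposite signs.

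Some bright members rose beyond error on both probes at 2 h after scaling, but hsa-miR-1246 and hsa-miR-1308 did not. At 2 h all probes were beyond error with the same sign in 4 of the 17 members, and all 4 were higher. Counted in either direction, this was found in 1 of 116 lower numbers with at least 2 such probes. It was found in 3.92% of all 153 human miRNAs with them. The probes of hsa-miR-1260 both gave 0.46, those of hsa-miR-1274b 0.45 and 0.48, those of hsa-miR-1274a 0.44 and 0.50, and those of hsa-miR-1280 0.50 and 0.52. Without scaling none of the 4 was beyond error, both probes of hsa-miR-1260 gave -0.07, and the only member left was hsa-miR-1207-5p, lower at -0.59 and -0.60. At 4 h all probes were beyond error in 1 of 17 members, hsa-miR-1915, with 0.54 and 0.67, and in 2.48% of all 161. Its first probe read 16.4, 11.6, 11.8 and 24.7 and its second 16.5, 12.5, 12.6 and 24.2 on control 2 h, berberine 2 h, control 4 h and berberine 4 h.

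**Figure D5:**
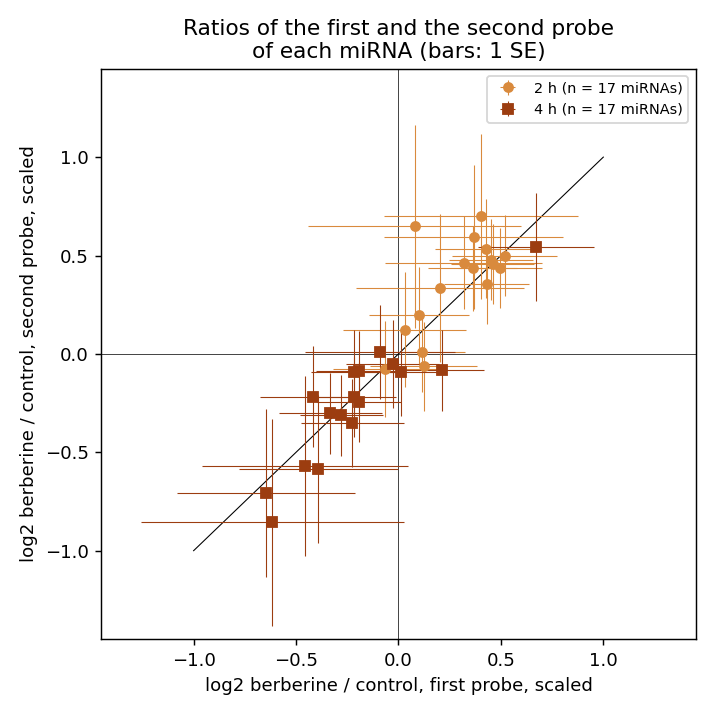
Each point is a member with at least 2 probes detected on both arrays of a time, with the scaled log2 ratio of its first such probe (horizontal) and of its second (vertical), bars of 1 SE and the line of equal ratios. There are 17 members at each time, most points at 2 h lie in the upper right and most at 4 h in the lower left, and hsa-miR-1915 at 4 h (0.67 and 0.54) stands in the upper right.

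In some bright members 1 probe gave most of the signal. The brighter probe exceeded the dimmer one by 11.9 times in hsa-miR-1280, 11.2 times in hsa-miR-1260 and 9.08 times in hsa-miR-1246. The first probe of hsa-miR-1290 was detected on only 2 arrays, at 4.41 and 6.40, where its second probe read 215 and 288. Probes of other members were nearly equal in brightness, with a ratio of 1.01 in hsa-miR-1305. For hsa-miR-1280 the brighter probe read 217, 213, 218 and 233 and the dimmer one 18.1, 18.0, 18.6 and 19.4. Both were almost level over the 4 arrays although the total rested on the brighter. The brightness ratio in hsa-miR-1280 kept to 11.8 to 12.0 on the 4 arrays.

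The spots within a probe were compared in the same way. After spots marked as outliers were left out and each array was scaled, all berberine spots were above all control spots in 17 of the 46 probes of the 22 members at 2 h, and all were below in 0. Over the 439 probes of all 197 human miRNAs the shares were 10.0% above and 4.33% below. At 4 h they were above in 3 member probes and below in 12, against 21.6% and 4.78% of all probes. Without scaling, they were above in 0 and below in 16 member probes at 2 h (0.456% and 64.7% of all probes), and above in 16 and below in 0 at 4 h (64.0% and 0%). The 3 probes above at 4 h were both of hsa-miR-1915 and the first of hsa-miR-1308. Leaving out outliers narrows each set of spots, and spots of 1 array share its labelled RNA.

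The total signal of dim members depended on how many probes were detected. In 16 of the 22 members the total was taken over 1 set of probes throughout. In the other 6, which were hsa-miR-1225-3p, hsa-miR-1238, hsa-miR-1281, hsa-miR-1288, hsa-miR-1290 and hsa-miR-1825, a probe near its limit entered the sum on some arrays only. For hsa-miR-1225-3p the total read 10.9, 4.97, 5.34 and 9.38, with ratios of -0.61 at 2 h and 0.41 at 4 h. Its second probe, detected on all 4 arrays, read 5.80, 4.97, 5.34 and 5.43, with ratios of 0.30 and -0.37, so the sign of both ratios turned when 1 probe was followed.

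The same held for other dim members. The total of hsa-miR-1281 read 10.2, 5.97, 11.4 and 8.91, with -0.25 at 2 h, while its second probe read 5.37, 5.97, 6.57 and 4.78, with 0.68. The total of hsa-miR-1825 read 9.70, 5.29, 5.63 and 4.03, with -0.35 at 2 h, while its second probe gave 0.52, and at 4 h its arrays shared no detected probe. When every probe detected on any array was kept in the sum on each of them, 20 of 22 members were above 0 at 2 h and 19 of 23 below 0 at 4 h, with medians of 0.38 and -0.23.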

How the data were processed

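Total RNA of HepG2 cells was hybridised to 1 Agilent human miRNA array per condition. For each array the authors deposited the Feature Extraction 10.7.3.1 output, with an intensity after background subtraction for each spot, probe and miRNA that is not scaled between arrays, its error and a flag for detection. A second deposited table holds the authors' fold changes and was not used. No columns of per-sample values were left out. Each array held 15739 features. Detected human miRNAs numbered 199 to 242, the lowest detected signal was 1.79 to 2.52 and an undetected miRNA was written as 0.1. The median local background was 24 to 28, and precision is limited by the small number of arrays.

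Signals were scaled on the log2 scale by the 75th percentile over those 197 human miRNAs that every array detected. Ratios were taken where both arrays detected the miRNA, with errors from the signal errors. The 2-fold threshold is that of the study's methods. Alternatives were no scaling, the median, the 75th percentile over all human miRNAs, quantile normalization, other probe summaries, limma's normexp (3.58.1, R 4.3.3) with offset 50 on spot medians, filters on dim miRNAs, a 1.5-fold threshold, all probes for detection, other comparison groups and 1 SE. The ratios were checked on simulated data, in which every miRNA of an array shared the same brightness factor. The check therefore cannot show whether the scaling suits members that did not follow the array brightness. Python 3.11.15, numpy 2.4.6, pandas 2.3.3 and matplotlib 3.10.9 were used.

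The members and lists were chosen with earlier results of these data known. Named with values were members on all 4 arrays (the 10 brightest in full, others by range or where singled out), the largest rise and fall at each time, listed members and those on some arrays. Sequences came from RefSeq. The array files name hg18, so coordinates were read only from RefSeq's GRCh38.p14 tables.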

Additional observations from a re-analysis of the deposited data

Results flagged for a closer look

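In 16 of the 22 members on all 4 arrays the scaled log2 ratio had opposite signs at 2 h and 4 h, and this difference between the times was not tested, since each condition had 1 array. Opposite signs were common in the lower numbers too. Of 146, 18 were above 0 at 2 h and below 0 at 4 h, and 85 were the reverse. Among the 26 of these with numbers of 500 and above, the counts were 8 and 10. The ratio at 4 h minus that at 2 h was below 0 in 14 of the 16 members. It was -1.17 in hsa-miR-1234, -0.81 in hsa-miR-1280, -0.80 in hsa-miR-1305, -0.77 in hsa-miR-1260, -0.76 in hsa-miR-1228, -0.69 in hsa-miR-1274b, -0.68 in hsa-miR-1274a and -0.55 in hsa-miR-1202, which are the 8 members where it was beyond error. It was -0.48 in hsa-miR-1238, -0.44 in hsa-miR-1268, -0.39 in hsa-miR-1308, -0.31 in hsa-miR-1275, -0.19 in hsa-miR-1225-5p and -0.12 in hsa-miR-1246, all within the error. The difference was above 0 in hsa-miR-1225-3p, at 1.02 (SE 0.74), and in hsa-miR-1290, at 0.22 (SE 0.29), both within the error. In hsa-miR-1225-3p, hsa-miR-1238 and hsa-miR-1290 the totals summed different probes on different arrays. The share of lower numbers with a difference beyond error was not taken. The array brightness differed in opposite directions at the 2 times, and its part in the opposite signs was not tested.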

How the results depend on the processing

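With 1 array per condition there was no replicate to leave out, and dim members near the detection limit carry large errors. No paired analysis was possible because the groups share only 1 replicate number. A fit with time as a block over both times was not run.

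The number of members past the threshold at 2 h was 1 without scaling, 1 with the brightest probe, 1 at 1.5-fold and 22 with a percentile taken over all human miRNAs, which falls among undetected miRNAs on berberine 2 h. At 4 h it was 2 without scaling, 1 with the median, 3 with the percentile over all, 3 with quantile normalization and 5 at 1.5-fold. Between the controls it was 2 without scaling, 3 at 1.5-fold and 0 with the median, the percentile over all, quantile normalization, the brightest probe, the mean of all probes, the same probes, normexp and only miRNAs above the median signal. The member median at 2 h was -0.21 without scaling, 5.42 with the percentile over all and 0.073 with quantile normalization. At 4 h it was 0.30 without scaling, -0.50 with the percentile over all and -0.37 with the brightest probe. Between the controls it was 0.15 with the median and 0.45 with the percentile over all. Members minus lower numbers at 2 h was 0.079 with quantile normalization. The cause was not tested. Shares of all human miRNAs past the threshold were not taken under these alternatives, so the member counts have no background to be read against.

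With lower numbers of 500 and above, their detected share was 14.0%, 9.81%, 13.2% and 14.0% and their median signal 12.2, 22.1, 8.85 and 15.2 on control 2 h, berberine 2 h, control 4 h and berberine 4 h. Members with all probes beyond error at 2 h numbered 1 without scaling and 7 at 1 SE, and at 4 h 6 at 1 SE. The shares of all human miRNAs under these settings were not taken, so these counts are no result about the members. Without scaling, 0 members were above 0 beyond error and 7 below it at 2 h, while at 4 h 6 were above and 0 below, and member probes with all spots above or below numbered 0 and 16 at 2 h and 16 and 0 at 4 h, the last chosen after the data were seen. Between the controls, hsa-miR-1288 turned to 0.13 with normexp. Of the members' single ratios under these alternatives, 144 of 206 at 2 h, 143 of 214 at 4 h and 153 of 214 between the controls moved by less than their error.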
